A study of Mus musculus with 8 samples.

Results

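The enzymes that load fatty acids onto coenzyme A and then place them in membrane phospholipids were followed here in 4 mouse fibrosarcoma cell lines. The deposited gene table was searched by symbol for 10 genes. They were the long-chain acyl-CoA synthetases Acsl1, Acsl3, Acsl5 and Acsl6, the lysophosphatidylcholine acyltransferases Lpcat1, Lpcat2, Lpcat3 and Lpcat4, and the membrane-bound O-acyltransferases Mboat1 and Mboat2. They make up 10 of the 18768 genes in the table, and all of them were among the 15153 genes that passed the filter on low counts. The lines MC010 and MC011 have the label IRF8 KO and came from mice without IRF8, a transcription factor of the interferon regulatory factor family. The lines MC654 and MC659 have the label WT and came from wild-type mice. All 4 lines grew out of subcutaneous tumors induced with methylcholanthrene (MCA), a chemical carcinogen, and the dissociated tumor cells were passaged in culture until they were stable. A line was thus grown from a mixture of cells, and whether it came from a single tumor is not given in the sources used here. The age of the mice is not given in the sources used here. RNA was sequenced from untreated cultures, with 2 libraries per line, so 4 libraries stand against 4 libraries but only 2 lines against 2 lines. The study asked whether IRF8 alters ferroptosis, an iron-dependent cell death in which membrane lipids are oxidized.

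A free fatty acid is inert in the cell until an acyl-CoA synthetase joins it to coenzyme A. The acyl-CoA can then be burned, elongated, stored or built into a phospholipid. In the remodelling cycle described by Lands, a phospholipase A2 removes a fatty acid from a phospholipid, and a lysophospholipid acyltransferase of the LPCAT or MBOAT families puts another in its place. Polyunsaturated chains placed in this way are the substrate of lipid peroxidation, whereas monounsaturated chains are much less easily oxidized, and for this reason the enzymes of both steps are studied in ferroptosis.

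The libraries held between 74063616 and 116206078 counts. Irf8 itself, the gene deleted in the donor mice of the KO-labelled lines, was read 442 and 347 times in MC010, 32 and 10 times in MC011, and 0 to 2 times in each WT-labelled library. This RNA level is the reverse of what the labels would lead one to look for, but the study assigned the genotypes by PCR on genomic DNA of the lines with primers for the wild-type and the mutant allele, and counts over the whole gene do not show which exons were transcribed. The lines are therefore called KO-labelled and WT-labelled throughout. Vim, the mesenchymal intermediate filament gene, was high in all 4 lines, with mean levels in CPM (TMM-scaled, so that libraries of different depth compare) of 7053, 5389, 4661 and 4829 in MC010, MC011, MC654 and MC659. All 9 mesenchymal markers were in the table, and their summed level was 9744 to 10521 CPM in the KO-labelled libraries and 14421 to 16163 CPM in the WT-labelled libraries. Most of that gap was Fn1, at 1587 against 7973 CPM, the only 1 of the 9 called lower, while Pdgfra, Thy1 and S100a4 were called higher and the list median was 0.39 on the log2 scale. The leukocyte marker Ptprc was at 0.167 CPM in MC010, 0 in MC011, 0.0179 in MC654 and 0.0224 in MC659. The 5 of 9 hematopoietic markers in the table summed to 5.73 to 7.97 CPM in the KO-labelled and 9.67 to 11.5 CPM in the WT-labelled libraries. Most of that was Cd68, at 6.06 against 9.10 CPM, and Csf1r was lower too, at 0.349 against 1.34 CPM. Ptprc, Cd79a and Laptm5 had higher means in the KO-labelled libraries, at levels too low to be tested, with Laptm5 at 0.488 CPM in MC010. Epithelial markers, 6 of 7 in the table, ranged from 39.9 to 566.7 CPM in the KO-labelled libraries and from 114.7 to 129.3 CPM in the others. The 4 endothelial markers summed to under 1 CPM in each library. Of 6 adipocyte markers only Fabp4 and Pparg were in the table, and they summed to 0.743 to 4.52 CPM against 13.3 to 14.1 CPM, nearly all of it Pparg. The part of these marker differences in the results below was not tested, and in RNA from whole cultures fewer cells of a type and less RNA per cell cannot be told apart.

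The promoters of the 10 genes were compared first. The RefSeq table (GRCm38.p6) holds 13 promoters for them, each reaching from 250 bases before a transcript start to 50 bases after it, among 32841 promoters. The stretches before the start of 4 genes are printed because these genes carry the main patterns of the expression data: Acsl1 and Mboat1 were called higher in the KO-labelled lines, Acsl3 was called lower, and Lpcat2 varied most among the lines. All 4 lie on the + strand, and capitals mark a GC box, a CCAAT box or a TATA box on either strand.
Acsl1, chr8:46470787-46471036: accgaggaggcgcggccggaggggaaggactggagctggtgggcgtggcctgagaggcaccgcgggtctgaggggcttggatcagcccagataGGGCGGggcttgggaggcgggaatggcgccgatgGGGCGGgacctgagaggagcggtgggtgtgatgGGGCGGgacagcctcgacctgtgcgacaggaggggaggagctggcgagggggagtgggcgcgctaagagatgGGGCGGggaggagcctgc
Acsl3, chr1:78657575-78657824: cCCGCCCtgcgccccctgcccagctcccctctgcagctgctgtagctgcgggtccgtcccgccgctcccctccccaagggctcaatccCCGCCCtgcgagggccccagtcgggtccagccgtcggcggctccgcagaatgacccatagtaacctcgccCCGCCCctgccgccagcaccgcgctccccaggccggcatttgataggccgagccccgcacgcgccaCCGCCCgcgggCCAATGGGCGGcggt
Lpcat2, chr8:92855083-92855332: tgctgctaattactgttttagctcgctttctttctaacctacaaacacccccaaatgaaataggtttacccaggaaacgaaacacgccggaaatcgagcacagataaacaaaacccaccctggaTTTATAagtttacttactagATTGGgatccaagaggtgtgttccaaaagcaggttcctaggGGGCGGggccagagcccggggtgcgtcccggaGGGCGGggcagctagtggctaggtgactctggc
Mboat1, chr13:30136240-30136488: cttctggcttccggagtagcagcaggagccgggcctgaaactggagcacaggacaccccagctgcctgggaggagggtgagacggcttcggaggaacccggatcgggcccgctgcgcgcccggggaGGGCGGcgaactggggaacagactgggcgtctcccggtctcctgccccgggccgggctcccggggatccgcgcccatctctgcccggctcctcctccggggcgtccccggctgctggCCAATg
In the Acsl3 promoter a CCAAT box and a GC box stand directly beside each other, so their capitals run together. All motifs were searched on both strands of the 300 bases. The core of an interferon regulatory factor element, GAAANNGAA, was in 0 of the 13 promoters of these genes and in 8.56% of all promoters. A GC box (GGGCGG) was in 11 of the 13, which belong to 9 of the 10 genes (all but Acsl5), and in 35.7% of all promoters. The CCAAT box was in 9 of the 13 and in 37.4% of all promoters. The TATA box (TATAAA) was, among these genes, in the Lpcat2 promoter only, against 13.6% of all promoters. The letters TCACNCCAC, a form of the sterol regulatory element, were in 1 of the 13, the second Acsl1 promoter, and in 1.24% of all promoters. The 13 promoters had a median GC content of 71%, and the median over all promoters was 52.7%. These matches describe letters in short windows and do not show binding by any factor.

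In the comparison of the 4 KO-labelled with the 4 WT-labelled libraries, 6 of the 10 genes were called by the rule given below. Acsl1, Acsl6, Mboat1 and Mboat2 were higher in the KO-labelled lines, by 1.76-fold to 2.89-fold, and Acsl3 and Lpcat4 were lower, both by 1.58-fold. A gene was called at a Benjamini-Hochberg adjusted p under 0.05 in edgeR's quasi-likelihood test together with a log2 difference of more than 0.59 either way. By this rule 13.7% of all genes tested were called higher and 8.72% lower, so 4 of 10 and 2 of 10 are to be read beside those shares. By the adjusted p alone 7 of the 10 passed, beside 37.5% of all genes. The libraries of the 2 labels did not overlap for 7 of the 10, beside 42.5% of all genes. The median log2 fold change was -0.08 over the 10 genes and 0.02 over all genes, and the median absolute value was 0.66 against 0.36. With 2 lines per label, differences between the labels and between these particular lines cannot be told apart. When the counts of each line were summed, so that 2 lines stood against 2, edgeR called 0 of 16927 genes, with 3658 at an unadjusted p under 0.05, Acsl1, Lpcat4, Mboat1 and Mboat2 among them. With the line as a random block in limma-voom, all genes called numbered 1876, and 5 of the 6 genes were still called, Acsl6 being lost. That fit used the same correlation between libraries of a line, 0.828, for all genes, whether or not they varied between lines. Acsl3 was called there with an adjusted p of 0.0422.

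**Figure D1:**
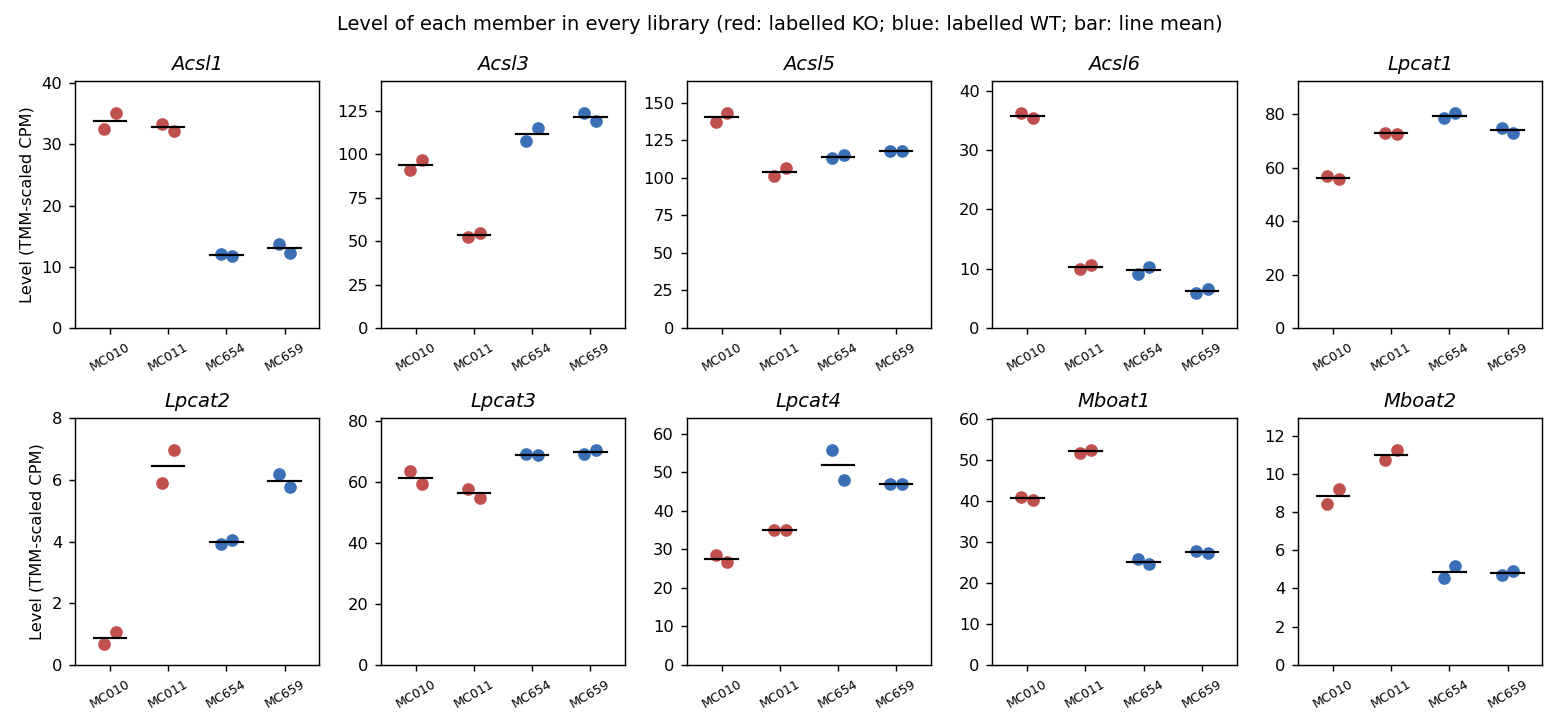
Level of each of the 10 genes in every library, in CPM scaled by edgeR's TMM factors on the vertical axis from 0, with the 4 lines on the horizontal axis. Points are libraries (red, labelled KO; blue, labelled WT) and bars are line means of 2 libraries. Acsl1 and Mboat2 are higher in both KO-labelled lines than in both WT-labelled lines, whereas Acsl6 is high in MC010 alone and Lpcat2 is low in MC010 alone.

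Among the synthetases, Acsl1 (ENSMUSG00000018796, chr8:46471037-46536051 of GRCm38) showed the clearest split between the labels. The enzyme sits at the endoplasmic reticulum and the outer mitochondrial membrane and activates long-chain fatty acids for oxidation and for lipid synthesis. Its level was 32.5 and 35.1 CPM in MC010, 33.4 and 32.2 in MC011, 12.1 and 11.7 in MC654, and 13.8 and 12.2 in MC659. Every KO-labelled library was above every WT-labelled library, and the lines of a label lay together. The means were 33.3 ± 1.31 and 12.5 ± 0.917 CPM (SD, n = 4 libraries each), a log2 fold change of 1.42 with a standard error of 0.08 and an adjusted p of 1.08e-05. In the order of the lines, MC010 and MC011 did not differ past the threshold (adjusted p = 0.630), nor did MC659 and MC654 (adjusted p = 0.325). MC011 was above MC659, its neighbour with the other label, in edgeR's test between single lines (adjusted p = 4.54e-10). Acsl1 kept an adjusted p under 0.05 with each of the 8 libraries left out in turn. With counts summed per line, its adjusted p between the labels in edgeR was 0.0716.

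Acsl6 (chr11:54303798-54364756), best known from brain, where it enriches phospholipids in polyunsaturated chains, had the largest label fold change of the 10 genes, but it rested on MC010. It was at 36.2 and 35.4 CPM in MC010, 10.0 and 10.6 in MC011, 9.06 and 10.3 in MC654, and 5.95 and 6.56 in MC659. MC010 stood apart from the rest, and the lower library of MC011 lay under the higher library of MC654. The label difference was 1.53 with a standard error of 0.48 on the log2 scale, with an adjusted p of 0.0372 and means of 23.0 ± 14.7 and 7.97 ± 2.07 CPM (SD, n = 4). With MC010 left out it was 0.35 with an adjusted p of 0.208. Leaving out a single library kept the adjusted p under 0.05 in 2 of 8 cases, and the highest value was 0.101. MC011 and MC654 were neighbours that did not differ past the threshold (adjusted p = 0.431).

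Acsl3 (chr1:78657825-78707743), an enzyme of the endoplasmic reticulum and lipid droplets known for activating monounsaturated fatty acids, moved the other way. Its level was 91.0 and 96.4 CPM in MC010, 52.4 and 54.5 in MC011, 107.4 and 115.3 in MC654, and 123.6 and 119.1 in MC659. All KO-labelled libraries were below all WT-labelled ones, MC011 by far the more so. The label difference was -0.66 with a standard error of 0.21 (adjusted p = 0.0382), and the adjusted p stayed under 0.05 in 2 of the 8 fits that left out a library, with 0.0899 the highest. With MC011 left out, the log2 difference was -0.32. Of its 4357 exon bases, 244 are shared with Utp14b on the same strand, which had 1046 to 2076 counts beside 4304 to 10905 for Acsl3, and reads there may have been assigned to neither gene or to the other.

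Acsl5 (chr19:55251938-55297720), a mitochondrial and endoplasmic reticulum isoform best known from intestine and liver, did not pass either threshold between the labels. It was at 137.4 and 143.0 CPM in MC010, 101.0 and 106.5 in MC011, 113.0 and 115.0 in MC654, and 117.5 and 118.1 in MC659. The KO-labelled lines lay on either side of the WT-labelled lines. The log2 difference was 0.07 with a standard error of 0.12 (adjusted p = 0.656), and with MC010 left out it was -0.18. The exons of Acsl5 share 404 of 4864 bases with Zdhhc6 on the opposite strand, and the strand setting of the read counting is not given in the sources used here.

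Among the lysophosphatidylcholine acyltransferases, Lpcat4 (chr2:112239468-112247111) was the only member called between the labels. The enzyme reacylates lysophosphatidylethanolamine and lysophosphatidylcholine. Lpcat4 was at 28.4 and 26.7 CPM in MC010, 34.9 and 35.1 in MC011, 55.8 and 48.1 in MC654, and 46.9 and 47.0 in MC659. The groups did not overlap, and the first library of MC654 lay above the rest of its label. The means were 31.3 ± 4.34 and 49.4 ± 4.25 CPM (SD, n = 4), a log2 difference of -0.66 with a standard error of 0.11 (adjusted p = 0.00263). In the pairs of single lines the call held for MC010, at -0.91 against MC654 and -0.77 against MC659, whereas MC011 was short of the fold threshold, at -0.57 and -0.43.

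Lpcat3 (chr6:124663027-124704418), the main enzyme that places polyunsaturated chains in phosphatidylcholine and phosphatidylethanolamine, was lower in the KO-labelled libraries by a small amount. It had 63.5 and 59.4 CPM in MC010, 57.9 and 54.9 in MC011, 69.2 and 68.9 in MC654, and 69.2 and 70.6 in MC659. The groups did not overlap, and the WT-labelled libraries lay within a narrow range. The log2 difference was -0.24 with a standard error of 0.06, an adjusted p of 0.0123 and a ratio of 1.18 between WT-labelled and KO-labelled, so Lpcat3 passed by the adjusted p but not by the fold. Its 3268 exon bases share 334 with Emg1 on the opposite strand, and Emg1 had 8180 to 12824 counts beside 4336 to 7265 for Lpcat3.

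Lpcat1 (chr13:73467197-73516422), known from lung, where it makes the dipalmitoyl phosphatidylcholine of surfactant, did not pass either threshold. Its libraries held 56.7 and 55.6 CPM in MC010, 73.0 and 72.7 in MC011, 78.6 and 80.3 in MC654, and 74.9 and 73.1 in MC659. All 4 KO-labelled libraries were below all WT-labelled ones, but MC011 and MC659 were neighbours that did not differ past the threshold (log2 difference -0.02, standard error 0.05, adjusted p = 0.713). The label difference was -0.25 with a standard error of 0.11 (adjusted p = 0.0982).

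Lpcat2 (chr8:92855339-92919279), which also makes platelet-activating factor in inflammatory cells, was the lowest of the LPCAT members per length and the most variable across lines. It had 0.673 and 1.06 CPM in MC010, 5.91 and 6.97 in MC011, 3.91 and 4.05 in MC654, and 6.19 and 5.77 in MC659. MC010 was below the other lines, and MC011 was level with MC659 (adjusted p = 0.572). The highest line mean was 7.43 times the lowest, the widest range among the 10 genes. Over the labels the log2 difference was -0.45 with a standard error of 0.70 (adjusted p = 0.655), and it was 0.35 with MC010 left out and -2.55 with MC011 left out.

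The membrane-bound O-acyltransferases were both higher in the KO-labelled lines. Mboat1 (chr13:30136489-30246717) prefers lysophosphatidylserine and lysophosphatidylethanolamine and transfers oleoyl chains. It was at 40.9 and 40.4 CPM in MC010, 51.8 and 52.5 in MC011, 25.7 and 24.7 in MC654, and 27.8 and 27.4 in MC659. No library of either label reached the range of the other, and MC011 was above MC010 (adjusted p = 3.65e-05). The label means were 46.4 ± 6.66 and 26.4 ± 1.46 CPM (SD, n = 4), a log2 difference of 0.81 with a standard error of 0.11 (adjusted p = 0.000842).

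Mboat2 (chr12:24830879-24964397), the close relative that also accepts monounsaturated acyl-CoA, was expressed at a lower level with a like split. It had 8.44 and 9.22 CPM in MC010, 10.7 and 11.3 in MC011, 4.55 and 5.15 in MC654, and 4.69 and 4.94 in MC659. The labels did not overlap, and MC654 and MC659 did not differ past the threshold (log2 difference 0.01, standard error 0.11, adjusted p = 0.965). Between the labels the log2 difference was 1.04 with a standard error of 0.13 (adjusted p = 0.000705), with means of 9.91 ± 1.31 and 4.83 ± 0.266 CPM (SD, n = 4). Both Mboat genes, Acsl1, Lpcat3 and Lpcat4 kept an adjusted p under 0.05 with each of the 8 libraries left out. Such a fit still holds the other library of the same line. With the line as a random block in limma-voom, the adjusted p of Lpcat3 was 0.252. With counts summed per line, none of these genes stayed under 0.05 in edgeR, and Lpcat3 was at 0.342.

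**Figure D2:**
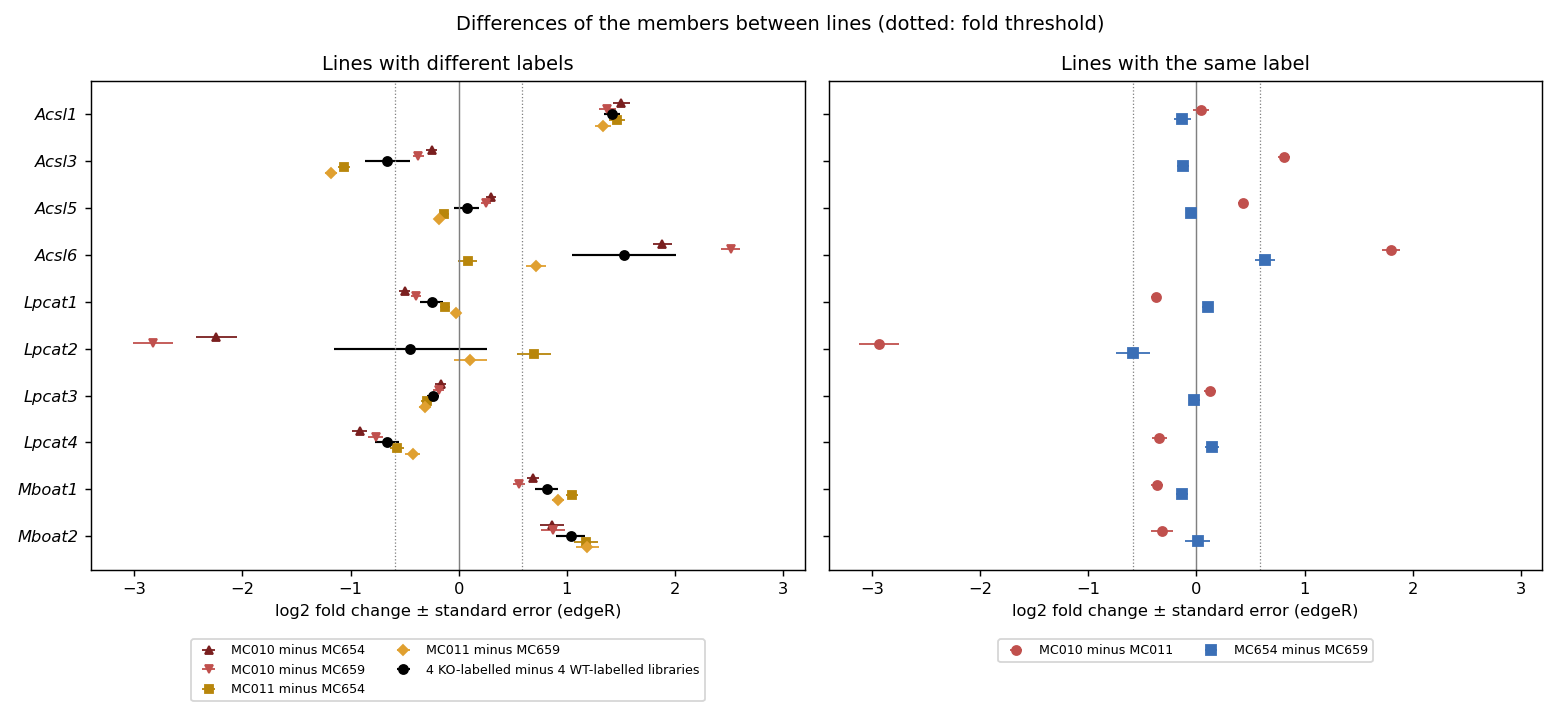
Log2 fold changes from edgeR on the horizontal axis with standard errors as bars, for the 10 genes listed on the vertical axis. The left panel has the 4 pairs of lines with different labels and, in black, all KO-labelled minus all WT-labelled libraries; the right panel has the pairs with the same label, and dotted lines mark the fold threshold of 0.59 in size. In the right panel, Lpcat2 at -2.93 and Acsl6 at 1.80 stand out between MC010 and MC011.

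The lines were then compared in pairs, to set the label differences beside the differences between lines of the same label. MC010 and MC011, both KO-labelled, differed in 3 of the 10 genes, beside 31.6% of all genes. Acsl3 was higher in MC010 by 0.81 (standard error 0.05, adjusted p = 3.06e-09) and Acsl6 by 1.80 (standard error 0.08, adjusted p = 4.48e-11), while Lpcat2 was lower by 2.93 on the log2 scale, a log2 difference of -2.93 (standard error 0.19, adjusted p = 1.86e-09). Acsl1 was the member nearest to equality in this pair, with a log2 difference of 0.04 and a standard error of 0.07. MC654 and MC659, both WT-labelled, differed in 1 of the 10 genes, beside 4.95% of all genes. That gene was again Acsl6, higher in MC654 by 0.63 (standard error 0.09, adjusted p = 0.000196), and Lpcat2 was just short of the fold threshold at -0.59 (adjusted p = 0.0204). Thus Acsl6 differed between lines of the same label in both labels, and the part of the label in its difference cannot be told apart from the part of the line.

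Across labels, 6 members were called between MC010 and MC654 (35.9% of all genes), 5 between MC010 and MC659 (36.8%), 5 between MC011 and MC654 (29.7%) and 5 between MC011 and MC659 (30.3%). Acsl1 and Mboat2 were called in the same direction in all 4 of these pairs, 2 of 10 genes beside 14.1% of all genes. For Acsl1 the log2 differences ran from 1.33 to 1.50, and for Mboat2 from 0.86 to 1.19. Mboat1 was higher in all 4 pairs and called in 3, since MC010 against MC659 gave 0.56. Acsl3 was lower in all 4 but called only for MC011, at -1.06 against MC654 and -1.18 against MC659, where MC010 gave -0.25 and -0.37. Lpcat2 was called lower in MC010 against both WT-labelled lines, at -2.24 and -2.83, and higher in MC011 against MC654, at 0.69. These pairs share lines with each other and are not independent.

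Libraries of the same line lay close together. Over the 10 genes and 4 lines, the 2 libraries differed by a median of 0.06 on the log2 scale, and the largest difference was 0.64, for Lpcat2 in MC010, its lowest level. The labels do not say whether the libraries of a line came from separate cultures, so the spread between them may be technical. The p-values between single lines measure against that spread alone. In the main fit between the labels, the spread also holds the differences between lines of a label. That fit treats the 4 libraries of a label as independent, although they come from 2 lines.

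The makeup of the 4 synthetases and of the 4 LPCAT members was compared per kilobase of the longest annotated transcript. On this scale different genes can be set side by side. Genes that were not followed here, X-linked ones included, are not in these sums, so the shares are not those of a whole family. The 4 synthetases summed to 70.0 and 73.2 CPM per kb in MC010, 47.4 and 49.0 in MC011, 58.5 and 61.1 in MC654, and 63.5 and 62.3 in MC659. MC010 was highest and MC011 lowest, so the summed level did not separate the labels. Acsl5 made up 46.1%, 50.8%, 45.0% and 44.2% of the sum in MC010, MC011, MC654 and MC659. Acsl3 was below Acsl5 in the KO-labelled lines, at 33.1% and 28.1%, and exceeded it in the WT-labelled lines, at 47.1% and 48.8%. Acsl1 made up 12.1% and 17.5% in MC010 and MC011, and 5.11% and 5.30% in MC654 and MC659. Acsl6 took 8.61% in MC010 and between 1.71% and 3.67% in the other lines. With the shortest transcript as the length, Acsl3 exceeded Acsl5 in MC010 as well, at 34.7% against 30.5%, and with no length scaling Acsl3 was below Acsl5 in MC654, at 45.1% against 46.2%. Acsl6 exceeded Acsl1 with the shortest transcript in MC010, at 19.9% against 14.9%, and in MC654, at 7.02% against 6.83%. With no length scaling Acsl6 exceeded Acsl1 in MC010, at 11.8% against 11.1%. The order of these genes in MC010 and MC654 thus depends on the length used.

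**Figure D3:**
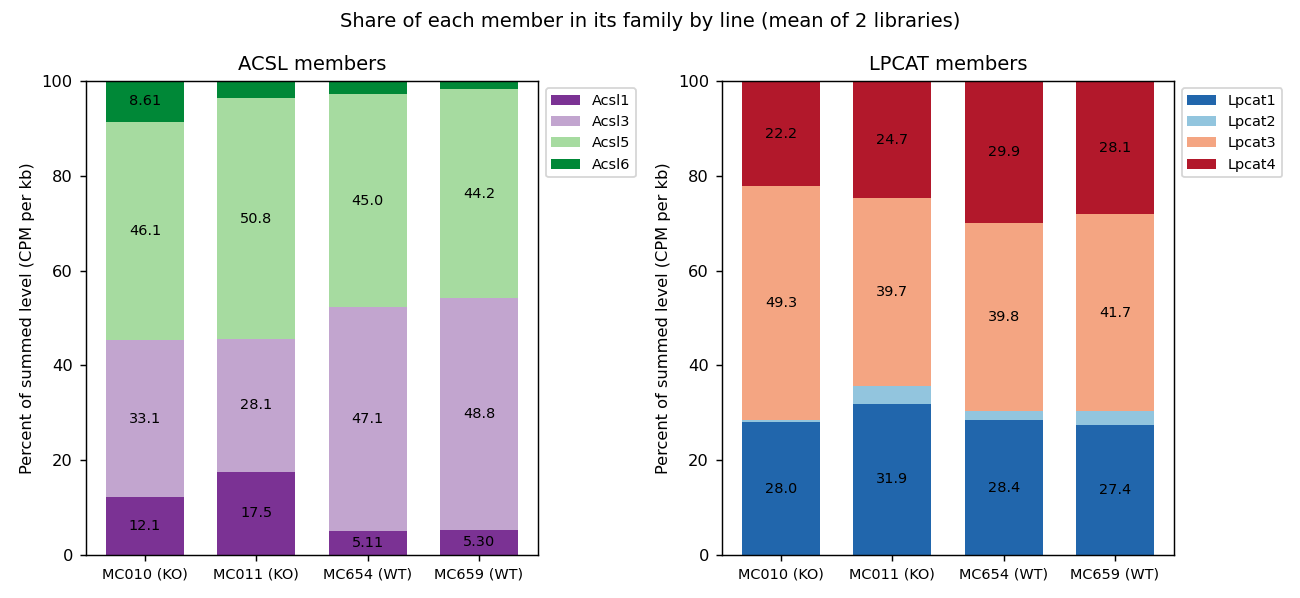
Share of each gene in the summed level of the 4 synthetases (left) and of the 4 LPCAT acyltransferases (right), in percent of CPM per kilobase of the longest transcript, by line with its label in brackets; each bar is the mean of 2 libraries. The Acsl1 segment is 12.1% and 17.5% in the KO-labelled lines and 5.11% and 5.30% in the WT-labelled lines, and the Lpcat2 segment is thin in all 4.

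The 4 LPCAT members together were lower in the KO-labelled lines, with 56.0 and 53.3 CPM per kb in MC010 and 62.7 and 61.7 in MC011, against 77.6 and 74.6 in MC654 and 73.5 in both libraries of MC659. Lpcat3 had the largest share per longest transcript in each line, at 49.3%, 39.7%, 39.8% and 41.7% in MC010, MC011, MC654 and MC659. Lpcat1 followed with 27.4% to 31.9%, highest in MC011, and Lpcat4 had 22.2%, 24.7%, 29.9% and 28.1%. Lpcat2 took 0.568% in MC010 and 3.69% in MC011. With the shortest transcript, Lpcat1 had more than Lpcat3 in MC011, MC654 and MC659, at 44.1%, 40.3% and 39.0% against 32.1%, 32.9% and 34.6%, so the order of Lpcat1 and Lpcat3 is not fixed by these data. Per kilobase, Mboat1 was at 13.9 to 14.1 CPM in MC010 and 17.8 to 18.1 in MC011, against 8.49 to 9.56 in the WT-labelled libraries. Mboat2 was far lower per kilobase, at 1.30, 1.62, 0.715 and 0.709 CPM in MC010, MC011, MC654 and MC659.

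The genes around these enzymes were read from the same comparison of the labels, in lists of pathway members. Of 8 other acyl-CoA synthetases tested, 2 were called in edgeR's test, both lower in the KO-labelled libraries. Acsbg1, a synthetase of very long and long chains known from brain and steroid-making tissues, fell from 24.4 ± 4.80 CPM in the WT-labelled to 3.80 ± 1.33 CPM in the KO-labelled libraries (SD, n = 4), a log2 difference of -2.68 (adjusted p = 0.000269). Slc27a1, a fatty acid transport protein with synthetase activity, differed by -1.33 (adjusted p = 0.0102). Acsl1 and Acsl6 were thus the only synthetases called higher, out of 12 tested in both lists.

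Of 11 other glycerophospholipid acyltransferases tested, 1 was called higher and 1 lower. Agpat2, which makes phosphatidic acid on the way to triglycerides and phospholipids, was at 49.3 ± 4.02 CPM against 20.7 ± 1.22 CPM (SD, n = 4), a log2 difference of 1.25 (adjusted p = 2.62e-05), with MC010 and MC011 at 52.6 and 45.9 CPM. Lclat1, the acyltransferase of lysocardiolipin, differed by -0.70 (adjusted p = 0.0252) and, as for Acsl3, MC011 was lowest, at 53.0 CPM against 90.7 in MC010. Mboat7, the family member that places arachidonic acid in phosphatidylinositol, was not called, at 0.18 (adjusted p = 0.249).

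**Figure D4:**
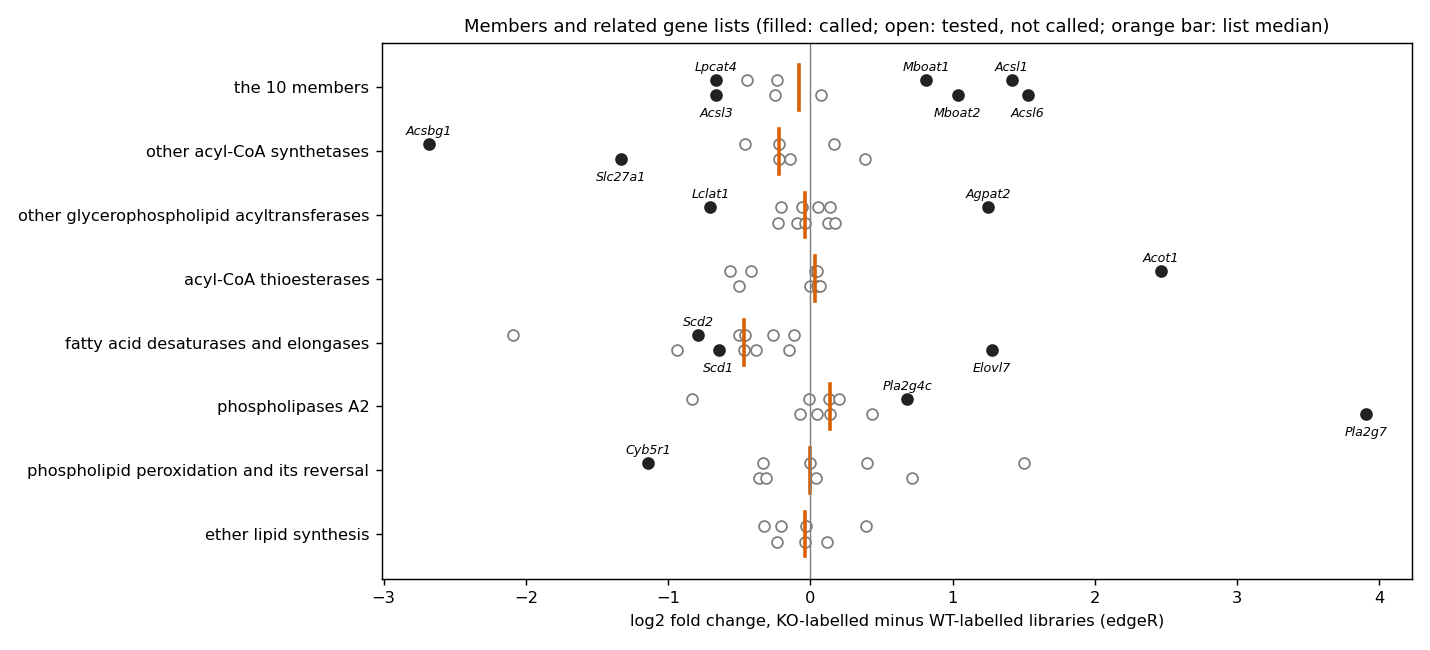
Log2 fold change from edgeR, KO-labelled minus WT-labelled libraries, on the horizontal axis, for the 10 genes and 7 lists of related genes on the vertical axis. Filled points were called and are named, open points were tested and not called, and orange bars are list medians; Acsl1, Acsl6, Mboat1 and Mboat2 lie right of 0 and Acsl3 and Lpcat4 left of 0 in the top row.

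Desaturases and elongases, which shape the chains that the 10 enzymes handle, had a list median of -0.47, with 1 called higher and 2 lower of 12 tested. Scd1 and Scd2, the stearoyl-CoA desaturases that make monounsaturated chains, differed by -0.64 (adjusted p = 0.0173) and -0.79 (adjusted p = 0.00955). Both were lowest in MC011, at 313.8 CPM for Scd1 and 1125 CPM for Scd2, against 477.8 and 1784 in MC010. Elovl7, an elongase of long saturated chains, was higher by 1.28 (adjusted p = 0.00271). Fads2 (-0.50) and Elovl1 (-0.47) passed by the adjusted p of edgeR's test but not by the fold.

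Among 10 phospholipases A2, the enzymes that open the site for reacylation, 2 were called, both higher. Pla2g7, the secreted platelet-activating factor acetylhydrolase, was at 739.4 CPM in MC010, 116.1 in MC011, 32.8 in MC654 and 24.3 in MC659, a label difference of 3.90 (adjusted p = 0.00387). It and Lpcat2, which makes platelet-activating factor, were at opposite ends in MC010. Pla2g4c, a cytosolic phospholipase A2, was higher by 0.68 (adjusted p = 0.0169). Of 9 acyl-CoA thioesterases, which reverse the synthetase step, only Acot1 was called, higher by 2.46 (adjusted p = 0.0338). It was at 15.7 CPM in MC011, 2.66 in MC010, 0.941 in MC654 and 2.37 in MC659, so MC010 lay near MC659 and MC011 stood apart.

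Genes of phospholipid peroxidation and its reversal were mostly not called, and the exception, 1 of 9 tested, was lower. Gpx4, the enzyme that reduces phospholipid hydroperoxides, was at 185.6 CPM under both labels (log2 difference 0.00 with a standard error of 0.05), with line means from 180.5 to 190.8 CPM. Cyb5r1, an oxidoreductase reported to feed lipid peroxidation, was lower by 1.14 on the log2 scale, at -1.14 (adjusted p = 0.000470). Por (0.40), Dhodh (-0.36) and Vkorc1l1 (-0.33) passed by the adjusted p of edgeR's test but not by the fold. Gch1 was not called between the labels, but it was at 11.9 CPM in MC010 and at 2.38 to 2.57 CPM in the other lines. Of the 7 genes of ether lipid synthesis tested, no gene reached the fold threshold in edgeR's test, while Agps (-0.23), Gnpat (-0.33) and Pex7 (0.39) passed by the adjusted p alone. In the 7 lists at most 3 of 7 to 12 genes tested were called, to be read beside the 13.7% of all genes called higher and 8.72% called lower, and the list medians lay between -0.47 and 0.14, beside 0.02 over all genes.

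The genes whose pattern over the 8 libraries was most like that of a called member were found by Pearson's r of log2 CPM, among genes with a mean of at least 1 CPM. For Acsl1 these were Epha4, an ephrin receptor, and Ptpn22, a tyrosine phosphatase, both with an r of 0.998. For Acsl3 they were Adamts6 and Usp37 (0.999 both), and for Acsl6 Lyn (0.998) and Mrpl49 (0.996). Lpcat4 was most like Ercc2 (0.996) and Crtc3 (0.995), Mboat1 most like Fbln5 and Patj (0.999 both), and Mboat2 most like Serpinb8 (0.996) and Anxa8 (0.995). With 4 lines of 2 libraries each, such values are common. Between 351 and 728 genes had an r above 0.95 with each of these 6 members, so the named genes describe these lines only. The r between Mboat1 and Mboat2 was 0.978, that between Acsl1 and Mboat2 0.959, and that between Acsl1 and Lpcat4 -0.93.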

How the data were processed

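Total RNA of 8 libraries, 2 from each of 4 lines, was sequenced with a stranded mRNA kit. The authors aligned the reads to mm10 (GRCm38.p6) and deposited raw read counts per gene. The submitters' processing notes name STAR 2.7.3a and HTSeq 0.11.2, and the article names other versions. Scaled values and the authors' own fold changes and p-values in the same table were not used. Each gene had at least 20 counts in total. X-linked and Y-linked genes were not analysed here.

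Counts were filtered with filterByExpr, scaled by TMM and tested with edgeR 4.0.16 in R 4.3.3 (robust quasi-likelihood, no covariate). A second fit had a group per line and gave 6 pairwise contrasts. P-values were adjusted over all genes tested. Alternatives were DESeq2 1.42.0 without independent filtering, no filter, upper-quartile scaling, a replicate block, sums per line, a random line block in limma-voom (limma 3.58.1), each library or line left out, and no fold threshold. The fits were tested on simulated counts with planted changes. Those for the label fit held no other difference between lines, so they do not show how it treats genes that differ by line.

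The members, lists and tests were chosen with earlier results of these data known. Named were the members, the called genes of each list (at most 3 per direction), Gpx4, Irf8 and the 2 genes most alike to each called member. Mboat7, Fads2, Elovl1, Agps, Gnpat, Pex7, Por, Dhodh, Vkorc1l1, Gch1 and single markers were added after their values were seen. Transcript lengths came from GENCODE M21, which matched the deposited start and end of all 10 genes, and promoters from RefSeq.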

Additional observations from a re-analysis of the deposited data

Results flagged for a closer look

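Lpcat4 in the first library of MC654 lay far above the other 3 WT-labelled libraries, at 55.8 CPM beside 46.9 to 48.1 CPM. Its gap to the nearest library was 0.869 of the group's range, above Dixon's critical value for 4 samples. Chance flags about 1 in 20 such groups, and 20 groups of 4 libraries were examined. Without that library Lpcat4 stayed past an adjusted p of 0.05.

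The KO-labelled lines differed from each other in their distance from the same WT-labelled lines for 3 of the 10 genes, by edgeR's test of MC010 against MC011. The log2 difference, MC010 minus MC011, was 0.81 for Acsl3, 1.80 for Acsl6 and -2.93 for Lpcat2. All 6 epithelial markers in the table also differed between these lines, in both directions. Krt8 and Krt18 were higher in MC010, by 7.78 and 3.07 on the log2 scale, while Epcam (-1.54) and Krt19 (-2.03) were lower. Cdh1 and Krt14 were lower too, at 0.00874 and 0.0481 CPM in MC010 against 0.311 and 0.891 CPM in MC011. The part of these markers in the differences above was not tested.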

How the results depend on the processing

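DESeq2 called the same 6 members between the labels, the same 3 between MC010 and MC011 and the same 1 between MC654 and MC659. Between the labels, the number of members called was 6, and it was 0 with counts summed per line, where edgeR's adjusted p was 0.0716 for Acsl1, 0.132 for Mboat1, 0.155 for Mboat2, 0.158 for Lpcat4, 0.305 for Acsl6 and 0.309 for Acsl3. With the replicate block 4 members were called, since Acsl3 and Acsl6 had adjusted p-values of 0.0617 and 0.0604, and the block changed no other call of a member between the labels. Library numbers did not pair the lines, since same-numbered deviations correlated between -0.03 and 0.06. With a line left out the number was 4 without MC010, 6 without MC011 and 4 without MC654 or MC659, and with MC010 left out Lpcat4 was at -0.52, short of the fold threshold. Between MC010 and MC011 it was 3, and 8 with no fold threshold. Between MC654 and MC659 it was 1, and 2 with no fold threshold, with no filter, with upper-quartile scaling or with the replicate block, Lpcat2 being added. Leaving out a library gave 0 to 1, with 0 without the first library of MC659, and without the second library of MC654 the call was Lpcat2 in place of Acsl6. Acsl5 turned to -0.016 without the second library of MC010 (-0.016 to 0.15 over the 8 libraries) and to -0.18 without MC010 (adjusted p = 0.00881), and Lpcat2 to 0.35 without MC010. The shares of Acsl5 in MC010, MC011, MC654 and MC659 were 30.5%, 36.1%, 32.4% and 32.1% with the shortest transcript, and 51.8%, 46.2% and 45.6% in the last 3 lines with no length scaling. Those of Lpcat3 were 41.0%, 32.1%, 32.9% and 34.6%, and 42.1%, 33.0%, 33.8% and 35.5%. Lpcat2, with 77 to 570 counts, was the member measured with the fewest reads.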
